A study of Mus musculus with 12 samples.

Results

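The genes described here are 38 lysosomal genes of mouse liver, chosen by symbol and led by Glb1, which encodes acid beta-galactosidase. They were 11 glycosidases, 3 sulfatases, 4 hydrolases of lipids and thioesters, 9 cathepsins, 2 other peptidases, 6 membrane proteins, 2 soluble lipid-binding cofactors and the transcription factor Tfeb. All 38 were found among the 55903 genes of the expression matrix, and all 38 were among the 10883 genes with a mean of at least 1 TPM (transcript abundance corrected for length and scaled to a fixed total per library) that were tested. Liver RNA was sequenced in 12 libraries, 4 in each of 3 groups. The first group was treated with a compound known by the code KSL0608-Se, and its description also names doxo. In the second group the titles name an aged control and the description names doxo, taken to mean the chemotherapy drug doxorubicin. It is called aged/doxo because age, the drug or both may set it apart, which the labels do not settle. The third group was young control liver, with no treatment named. The labels used here give no dose, age or strain. They also do not tie libraries to animals, so each p-value below is measured against the spread of libraries, which may in part be technical. The series title concerns light-activated removal of senescent cells, and beta-galactosidase activity is a widely used stain for such cells.

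Lysosomes are acidic organelles that take apart proteins, glycans and lipids delivered by endocytosis and autophagy. Most of their soluble enzymes are made in the endoplasmic reticulum, tagged with mannose 6-phosphate and carried to the organelle by receptors, while heavily glycosylated membrane proteins line its boundary. TFEB is a transcription factor that enters the nucleus when the kinase complex mTORC1 is inactive and binds CLEAR elements, which hold the letters CACGTG, in promoters of lysosomal genes. In liver both hepatocytes and the resident macrophages, Kupffer cells, are rich in lysosomes. Senescent cells are known for an enlarged lysosomal compartment, and the stain for senescence reads the enzyme made from Glb1.

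Promoter sequences were examined because these genes are known as a TFEB-regulated set. RefSeq promoter windows on GRCm38.p6, running from 250 bases before to 50 bases after each start site, were matched by symbol for 33 of the 38 genes, while Ctsb, Ctsh, Galns, Asah1 and Npc1 are named only. CACGTG, which reads the same on both strands, was present in windows of 12 of the 33 genes, a share of 36.4%. The share was 8.09% of all genes with a window, or 7.15% of all windows, and 12.02% of the tested genes. The longer TCACGTG, searched on both strands and overlapping the first motif by construction, was present for 10 of the 33 genes, or 30.3%. It was present for 4.29% of all genes with a window and for 7.26% of the tested genes. A match describes the letters only. The site nearest the start of each of the 12 genes is given in the direction of transcription, with CACGTG in capitals, so that the shared flanking letters can be compared.
Glb1, chr9:114401023-114401042, plus strand: tctgagtCACGTGgcctaca
Gaa, chr11:119267816-119267835, plus strand: gtgcgatCACGTGtttgact
Gla, chrX:134601187-134601206, minus strand: tctcggtCACGTGagcaact
Naglu, chr11:101070014-101070033, plus strand: ttcaggtCACGTGgcccgag
Arsa, chr15:89477428-89477447, minus strand: tcagtgtCACGTGttgtctg
Ctsa, chr2:164833771-164833790, plus strand: agatgctCACGTGaccagag
Ctsd, chr7:142387913-142387932, minus strand: cgcgtctCACGTGacccgtt
Ctsf, chr19:4855079-4855098, plus strand: cgtggtcCACGTGcctcgcg
Ctsl, chr13:64370744-64370763, minus strand: tagaagcCACGTGctgatct
Lgmn, chr12:102439129-102439148, minus strand: tgtctgtCACGTGgtccatt
Lamp1, chr8:13159139-13159158, plus strand: accacatCACGTGcggaacg
Mcoln1, chr8:3500467-3500486, plus strand: ccccgctCACGTGaccgcgg

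Of these 12 genes, Ctsf and Ctsl lacked a T directly before the motif on either strand. The motif began 48 bases before the start site in Glb1. Lamp1 held 4 copies, beginning 61, 45, 28 and 15 bases before its start. The whole windows of both genes are printed because Glb1 leads the set and Lamp1 had the most copies of the motif, again with CACGTG in capitals.
Glb1, chr9:114400828-114401127, plus strand: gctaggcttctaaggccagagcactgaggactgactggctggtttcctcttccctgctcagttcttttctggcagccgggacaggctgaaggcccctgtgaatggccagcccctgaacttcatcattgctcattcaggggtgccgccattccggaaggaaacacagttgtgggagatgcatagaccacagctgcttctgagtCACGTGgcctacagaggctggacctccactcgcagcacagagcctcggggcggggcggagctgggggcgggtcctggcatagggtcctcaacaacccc
Lamp1, chr8:13158911-13159210, plus strand: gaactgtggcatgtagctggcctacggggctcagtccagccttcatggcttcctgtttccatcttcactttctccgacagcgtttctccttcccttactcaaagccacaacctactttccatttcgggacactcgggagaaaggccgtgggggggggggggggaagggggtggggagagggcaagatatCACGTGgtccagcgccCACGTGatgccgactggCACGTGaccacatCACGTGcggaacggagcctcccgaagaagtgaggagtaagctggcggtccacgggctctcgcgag

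The genes spanned a wide range of levels. Lamp1, a major glycoprotein of the lysosomal membrane, had the highest mean over the 12 libraries at 290.1 TPM. It was followed by the cysteine proteases Ctsb at 244 TPM and Ctsl at 243 TPM, the membrane protein Lamp2, which also serves chaperone-mediated autophagy, at 210.3 TPM, and the aminopeptidase Ctsh at 205 TPM. The 9 cathepsins made up 51.7% of the summed TPM of the 38 genes and the 6 membrane proteins 26.6%, while the 11 glycosidases made up 7.82%. Glb1 ranked 32nd with a mean of 6.05 TPM, and the lowest means were those of the sulfatase gene Galns at 2.34 TPM, the alpha-galactosidase gene Gla at 1.51 TPM and the galactosylceramidase gene Galc at 1.20 TPM. Summed over all 38 genes, levels ranged from 2135 to 2736 TPM in treated livers, from 713 to 2534 TPM in aged/doxo livers and from 1223 to 2587 TPM in young control livers. The ranges overlapped. The lowest sums were those of aged/doxo library 2 and young control library 1. Without them the sums began at 1999.98 TPM in aged/doxo livers and at 1979.96 TPM in young control livers. Across the 38 genes the median coefficient of variation was 14.3% in treated livers, 42.9% in aged/doxo livers and 32.2% in young control livers, and without these 2 libraries it was 17.0% in aged/doxo livers and 19.9% in young control livers.

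Of the 12 libraries, aged/doxo library 2 and young control library 1 lay below the others. They were the 2 lowest of the 12 libraries for 33 of the 38 genes, against 55.6% of all tested genes. Aged/doxo library 2 was the lowest for 34 of the 38, against 54.8% of all genes, and young control library 1 was the lowest for Galc, Cd63 and Mcoln1. Tfeb alone was lowest elsewhere, in aged/doxo library 3. Both libraries also stood apart over the whole transcriptome. Aged/doxo library 2 had 9741 genes at 1 TPM or more and 27.6% of its TPM in mitochondrial genes. Young control library 1 had 9568 genes at 1 TPM or more and 12.4% in mitochondrial genes. The other 10 libraries had 10263 to 11023 such genes, and 8.10% to 11.9% of their TPM was mitochondrial. By the slope of log2(TPM + 1) on log2 gene length, these 2 libraries did not stand apart alone. It was -0.473 in aged/doxo library 2, -0.472 in young control library 1 and -0.449 in aged/doxo library 4. In the rest it lay between -0.387 and -0.229. Summed hepatocyte markers (10 of 10 measured) were also lowest in these libraries, at 51526 TPM in aged/doxo library 2 and 61669 TPM in young control library 1. Alb made up the largest part of both sums. Aged/doxo library 2 was the lowest of the 12 for 7 of the 10 markers, against 54.8% of all tested genes. Both libraries were the 2 lowest for 6, against 55.6%. Apoa1 had 14817 TPM in aged/doxo library 2, above all libraries but aged/doxo library 4. Fabp1 had 12326 TPM in young control library 1, above all but treated library 1. The part of library composition or RNA quality in the lysosomal values was not tested.

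**Figure D1:**
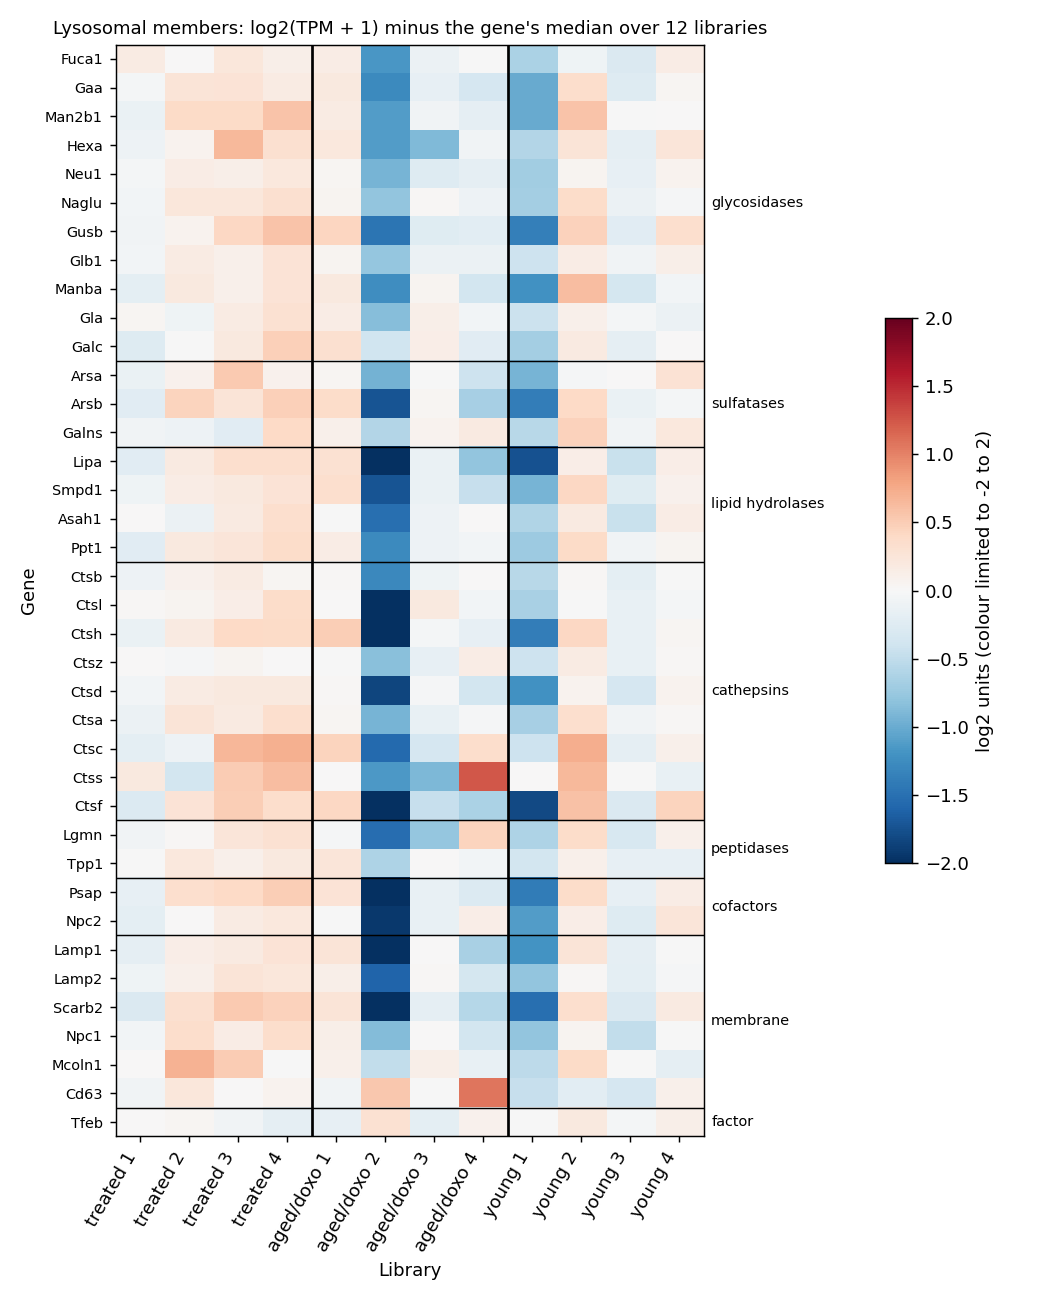
Heat map of the 38 lysosomal genes (rows, grouped by role) in the 12 libraries (columns), coloured by log2(TPM + 1) minus the gene's own median over the 12 libraries, with blue below and red above it. The columns of aged/doxo library 2 and young control library 1 are blue for most genes, with Cd63 and Tfeb above their medians in aged/doxo library 2, while Ctss and Cd63 are red in aged/doxo library 4.

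The lysosomal genes lay lower in aged/doxo library 2 than the typical gene. The median of their deviations from each gene's own median on the log2(TPM + 1) scale was -1.26 in that library, against -0.64 for all tested genes. In young control library 1 it was -0.69, against -0.50 for all tested genes. After median-of-ratios scaling, which sets the typical gene equal between libraries, the lysosomal median was -0.53 in aged/doxo library 2 and -0.11 in young control library 1. In TPM, the median lysosomal gene in aged/doxo library 2 stood at 34.4% of the mean of the other 3 libraries of its group, against 53.4% for the median of all tested genes. The 4 lipid and thioester hydrolases were at a median of 28.6%, the 9 cathepsins at 29.8%, the 11 glycosidases at 44.2% and the 6 membrane proteins at 44.7%. The range ran from 10.6% for Ctsf to 142% for Tfeb, with Cd63 at 109%. This is 1 library and allows no test.

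**Figure D2:**
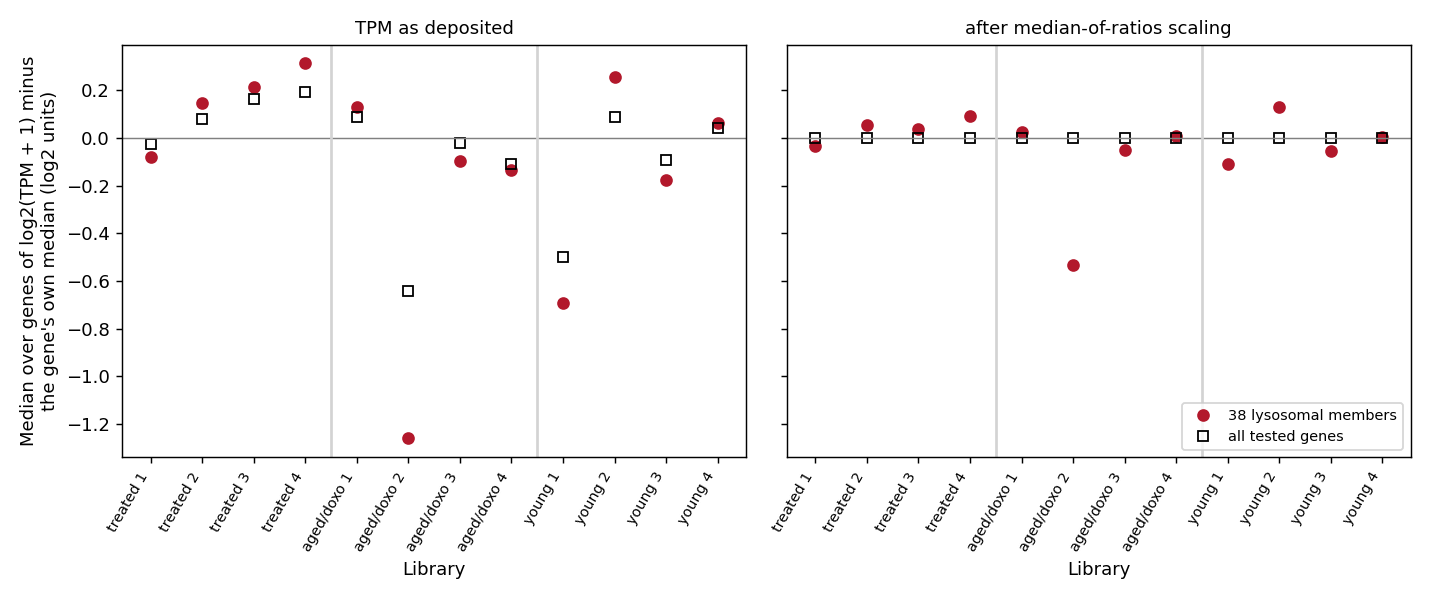
Median deviation of the 38 lysosomal genes (filled circles) and of all tested genes (open squares) from each gene's own median, in log2 units, for each library, with TPM as deposited on the left and after median-of-ratios scaling on the right. In aged/doxo library 2 the lysosomal median is -1.26 as deposited and -0.53 after scaling, below all other libraries in both panels.

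Among the glycosidases, Glb1 (chr9:114401076-114474898, plus strand, GENCODE M21 on GRCm38) had 5.92, 7.04, 6.76 and 7.69 TPM in treated livers, 6.51, 3.20, 5.67 and 5.64 TPM in aged/doxo livers, and 4.41, 7.01, 5.90 and 6.79 TPM in young control livers. The treated and aged/doxo libraries overlapped only through aged/doxo library 1, which lay above treated library 1, and the lowest value of each control group came from the library that stood apart. Means were 6.85 ± 0.734 TPM in treated livers, 5.255 ± 1.43 TPM in aged/doxo livers and 6.03 ± 1.18 TPM in young control livers (SD, n = 4 each). On the log2(TPM + 1) scale, which understates changes of low genes, treated livers exceeded aged/doxo livers by 0.36 (limma 95% interval -0.09 to 0.81, limma adjusted p = 0.427). The two-sided exact permutation p was 0.0571, adjusted over the 3 comparisons 0.171, and 0.0286 is the smallest p that 4 against 4 libraries allow. Aged/doxo livers differed from young control livers by -0.18 (limma interval -0.63 to 0.27, exact p = 0.457), and treated livers from young control livers by 0.17 (limma interval -0.28 to 0.62, exact p = 0.314). None of these differences passed either test, and in bulk liver fewer cells of a type and less RNA per cell cannot be told apart. Without aged/doxo library 2 and young control library 1 the 3 differences were 0.18, -0.12 and 0.05. The second was -0.004 without aged/doxo library 2 alone and -0.30 without young control library 1 alone. Under median-of-ratios scaling they were 0.04, -0.11 and -0.07, so that the third changed sign.

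Hexa encodes the alpha subunit of beta-hexosaminidase, which trims gangliosides. It had 18.4, 20.9, 31.7 and 24.9 TPM in treated livers, 23.1, 8.60, 10.3 and 18.8 TPM in aged/doxo livers, and 12.9, 23.9, 17.4 and 23.6 TPM in young control livers. Aged/doxo libraries 2 and 3 were the 2 lowest of the 12, and the groups overlapped. The excess of treated over aged/doxo livers was 0.70 on the log2(TPM + 1) scale (SE 0.31, 95% interval 0.02 to 1.38), with a limma p of 0.0441 that became 0.427 after adjustment over all tested genes. Without both libraries that stood apart it was 0.48. Against young control livers, Hexa differed by -0.40 in aged/doxo livers (SE 0.31) and by 0.30 in treated livers (SE 0.31).

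Neu1, the lysosomal sialidase, had 13.6, 15.6, 15.3 and 16.4 TPM in treated livers, 14.5, 6.90, 11.55 and 12.3 TPM in aged/doxo livers, and 8.27, 14.6, 12.4 and 14.9 TPM in young control livers. The treated values were the most even, and they overlapped both control groups. Treated minus aged/doxo was 0.44 (SE 0.24, limma adjusted p = 0.427), and 0.24 without both libraries that stood apart. Fuca1, the alpha-fucosidase and most abundant glycosidase of the set, had 68.3, 61.3, 71.5 and 65.7 TPM in treated livers, 67.3, 26.6, 55.8 and 60.1 TPM in aged/doxo livers, and 38.8, 57.3, 49.3 and 67.4 TPM in young control livers. Its treated minus young control difference was 0.35 (SE 0.28, limma adjusted p = 0.734), with young control library 4 inside the treated range.

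The other 7 glycosidases were Gaa (acid alpha-glucosidase), Gusb (beta-glucuronidase), Man2b1 and Manba (alpha- and beta-mannosidase), Naglu (heparan sulfate degradation), Gla and Galc. Their treated minus aged/doxo differences lay between 0.14 for Galc and 0.61 for Gusb, and their aged/doxo minus young control differences between -0.19 for Man2b1 and 0.13 for Galc. None passed adjustment, and without aged/doxo library 2 the median treated minus aged/doxo difference of all 11 glycosidases was 0.19, against 0.43 with it. The sulfatases Arsa and Arsb, which act on sulfatide and on dermatan sulfate, had treated minus aged/doxo differences of 0.47 and 0.74, which were 0.27 and 0.33 without aged/doxo library 2. Galns, which acts on keratan sulfate, had 0.05 (SE 0.25). Galns was highest in young control library 2 at 3.56 TPM and lowest in aged/doxo library 2 at 1.20 TPM.

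**Figure D3:**
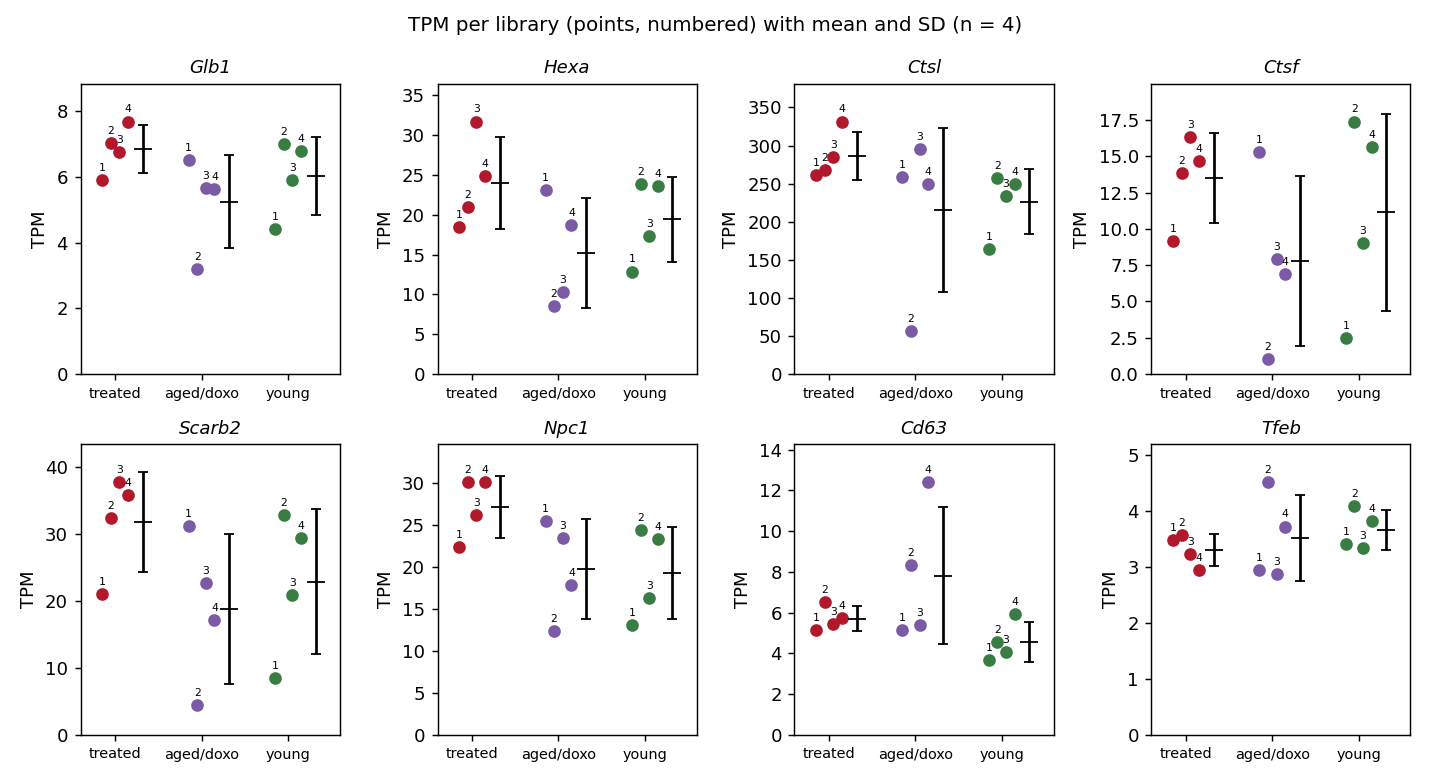
TPM of 8 lysosomal genes in each library (points, numbered by library) with the mean and SD of each group of 4 (bars), on linear axes that start at 0. Libraries of the 3 groups overlap for each gene except treated against young control livers for Ctsl, and the lowest aged/doxo point is library 2 for all but Cd63 and Tfeb.

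Lipid handling showed the same library pattern. Lipa, the acid lipase that frees cholesterol and fatty acids, had 47.5, 63.7, 70.6 and 70.7 TPM in treated livers, 69.2, 11.74, 51.0 and 32.1 TPM in aged/doxo livers, and 16.1, 61.5, 40.7 and 61.5 TPM in young control livers. Aged/doxo libraries differed among themselves more than the group means differed, and treated minus aged/doxo was 0.85 (SE 0.51), or 0.36 without aged/doxo library 2. Smpd1, the acid sphingomyelinase, Asah1, the acid ceramidase, and Ppt1, which removes fatty acids from proteins, had treated minus aged/doxo differences of 0.63, 0.51 and 0.47. For Psap, the precursor of the saposins that present sphingolipids to hydrolases, the difference was 0.85, and for Npc2, the soluble cholesterol carrier, it was 0.53. None of these 6 genes passed adjustment in any comparison, and all 6 were lowest in aged/doxo library 2. Without that library the median treated minus aged/doxo difference was 0.18 for the 4 hydrolases and 0.19 for both cofactors, against 0.57 and 0.69 with it.

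The partner of Npc2 is Npc1, the membrane protein that exports cholesterol. Npc1 had 22.4, 30.0, 26.1 and 30.0 TPM in treated livers, 25.5, 12.3, 23.4 and 17.8 TPM in aged/doxo livers, and 13.1, 24.3, 16.3 and 23.3 TPM in young control livers. Only treated library 1 lay inside the range of the young control libraries. Npc1 had the smallest p of the 38 genes between treated and young control livers, with a difference of 0.51 (SE 0.26, 95% interval -0.05 to 1.07, limma adjusted p = 0.734). It was 0.35 without both libraries that stood apart and 0.23 after median-of-ratios scaling. Npc1 and Rmc1 share 511 bases of exon on opposite strands. Whether the counting used strand is not stated, so their reads cannot be told apart where the exons overlap.

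Among the other membrane proteins, Scarb2, the receptor that carries beta-glucocerebrosidase to lysosomes, had 21.1, 32.5, 37.8 and 35.9 TPM in treated livers, 31.2, 4.40, 22.7 and 17.1 TPM in aged/doxo livers, and 8.46, 32.8, 21.0 and 29.4 TPM in young control livers. The groups overlapped, and aged/doxo library 2 stood at 18.6% of the mean of the other 3 aged/doxo libraries. The treated minus aged/doxo difference of 0.96 (SE 0.52, limma adjusted p = 0.427) was 0.42 without both libraries that stood apart. Lamp1 and Lamp2 had differences of 0.79 (SE 0.48) and 0.58 (SE 0.34) in the same comparison, and -0.40 and -0.21 between aged/doxo and young control livers. The first pair was 0.23 and 0.20 without aged/doxo library 2, and the second turned to 0.15 and 0.18. Mcoln1, the calcium channel TRPML1, had 13.9, 23.0, 20.1 and 13.7 TPM in treated livers, 14.8, 9.48, 15.1 and 12.3 TPM in aged/doxo livers, and 9.30, 18.4, 13.7 and 12.01 TPM in young control livers. Its treated minus young control difference was 0.39 (SE 0.25, limma adjusted p = 0.734), with 2 treated libraries high and 2 near the controls.

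Cd63, a tetraspanin of late endosomes, lysosomes and exosomes, did not follow this pattern. It had 5.14, 6.53, 5.43 and 5.74 TPM in treated livers, 5.14, 8.34, 5.40 and 12.4 TPM in aged/doxo livers, and 3.67, 4.54, 4.06 and 5.91 TPM in young control livers. Aged/doxo libraries 2 and 4 were the 2 highest of the 12, while libraries 1 and 3 lay within the young control range. Aged/doxo minus young control was 0.61 on the log2(TPM + 1) scale (SE 0.24, 95% interval 0.09 to 1.13), with a limma p of 0.0258 that became 1 after adjustment over all tested genes. Without both libraries that stood apart it was 0.48 (limma adjusted p = 0.997). Treated minus aged/doxo was -0.32 (SE 0.24).

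Tfeb had 3.48, 3.57, 3.23 and 2.94 TPM in treated livers, 2.95, 4.51, 2.88 and 3.72 TPM in aged/doxo livers, and 3.40, 4.08, 3.33 and 3.82 TPM in young control livers. Its highest value came from aged/doxo library 2, where most of the lysosomal genes were lowest. The differences were -0.06 between treated and aged/doxo livers, -0.06 between aged/doxo and young control livers and -0.11 between treated and young control livers, each with an SE of 0.16. The first was 0.04 without both libraries that stood apart. Under median-of-ratios scaling the 3 differences were -0.36, 0.03 and -0.33. TFEB is controlled largely by its location in the cell, which transcript levels do not measure. Genes with and without CACGTG in their window had median treated minus aged/doxo differences of 0.52 (12 genes) and 0.53 (21 genes).

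Ctsl, a broad cysteine protease, was the one gene of the 38 for which the libraries of a pair of groups, treated and young control, did not overlap. It had 262, 267, 285 and 332 TPM in treated livers, 259, 56.1, 296 and 249.5 TPM in aged/doxo livers, and 164, 257, 233 and 250.1 TPM in young control livers. The lowest treated library lay just above the highest young control library, and 3.66% of all tested genes were higher in treated than in young control livers without overlap. Treated minus young control was 0.36 (SE 0.43, limma adjusted p = 0.739), and 0.21 without both libraries that stood apart. Ctsf, a cysteine protease, had 9.13, 13.9, 16.3 and 14.7 TPM in treated livers, 15.3, 1.06, 7.94 and 6.87 TPM in aged/doxo livers, and 2.50, 17.4, 9.03 and 15.6 TPM in young control livers. The aged/doxo libraries alone spanned 1.06 to 15.3 TPM, and the groups overlapped. Its treated minus aged/doxo difference of 1.03 had an SE of 0.60 and was the largest of the 38 genes in all 12 libraries. Without aged/doxo library 2 it was 0.44, below the 0.48 of Hexa. Aged/doxo minus young control was -0.55 (SE 0.60) for Ctsf and turned to 0.04 without that library.

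The remaining cathepsins were Ctsb, Ctsc (which activates granule proteases), Ctsd (the main aspartic protease), Ctsh, Ctsz and Ctsa (the protective protein that stabilises beta-galactosidase and sialidase). Their treated minus aged/doxo differences ran between 0.23 for Ctsz and 0.78 for Ctsh, and their aged/doxo minus young control differences between -0.33 for Ctsc and -0.13 for Ctsz. Without aged/doxo library 2 the median treated minus aged/doxo difference of all 9 cathepsins was 0.11, against 0.54 with it. Ctsz was the most even gene in treated livers, at 167, 163, 171 and 167 TPM. Outside the cathepsins, the tripeptidyl peptidase gene Tpp1 had 18.2, 21.4, 19.7 and 21.2 TPM in treated livers, 22.0, 11.67, 18.5 and 17.7 TPM in aged/doxo livers, and 14.1, 19.7, 16.2 and 16.3 TPM in young control livers. Treated and young control libraries overlapped only through young control library 2, and the difference of 0.27 (SE 0.20) had a limma adjusted p of 0.734.

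Ctss and Lgmn, chosen here after their values were seen, followed a further pattern within the aged/doxo group. Ctss encodes a protease of antigen-presenting cells, and had 15.6, 10.2, 19.5 and 21.2 TPM in treated livers, 13.4, 5.48, 6.71 and 33.3 TPM in aged/doxo livers, and 13.4, 21.7, 13.3 and 11.97 TPM in young control livers. Lgmn, the asparaginyl endopeptidase, had 20.6, 22.0, 25.7 and 27.0 TPM in treated livers, 21.3, 6.90, 12.3 and 29.8 TPM in aged/doxo livers, and 13.8, 28.2, 17.2 and 23.3 TPM in young control livers. Both were highest in aged/doxo library 4 and lowest in aged/doxo libraries 2 and 3 of the 12.

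The summed markers of Kupffer cells and macrophages had the same order of libraries within that group as Ctss and Lgmn, as did 9 of the 13 markers singly, and all 13 were highest of the group in library 4. The lysosomal genes Ctsz, Npc2, Asah1 and Galns had this order within the group too, so it was not particular to Ctss and Lgmn. Its share over all tested genes was not counted. All 13 listed markers were measured, and their summed TPM was 215 to 327 in treated livers, 209, 80.6, 109 and 538 in aged/doxo libraries 1 to 4, and 206 to 371 in young control livers. Clec4f, a defining Kupffer cell lectin, had 65.6, 42.2, 62.6 and 61.1 TPM in treated livers, 49.9, 20.7, 21.3 and 124 TPM in aged/doxo livers, and 64.4, 66.8, 46.9 and 56.3 TPM in young control livers. The part of macrophage number in the lysosomal values was not tested. The aged/doxo minus young control difference of Lgmn was -0.35 (SE 0.36), and that of Ctss was -0.32 (SE 0.44). Both were close to 0, at -0.002 and -0.007, without aged/doxo library 2.

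**Figure D4:**
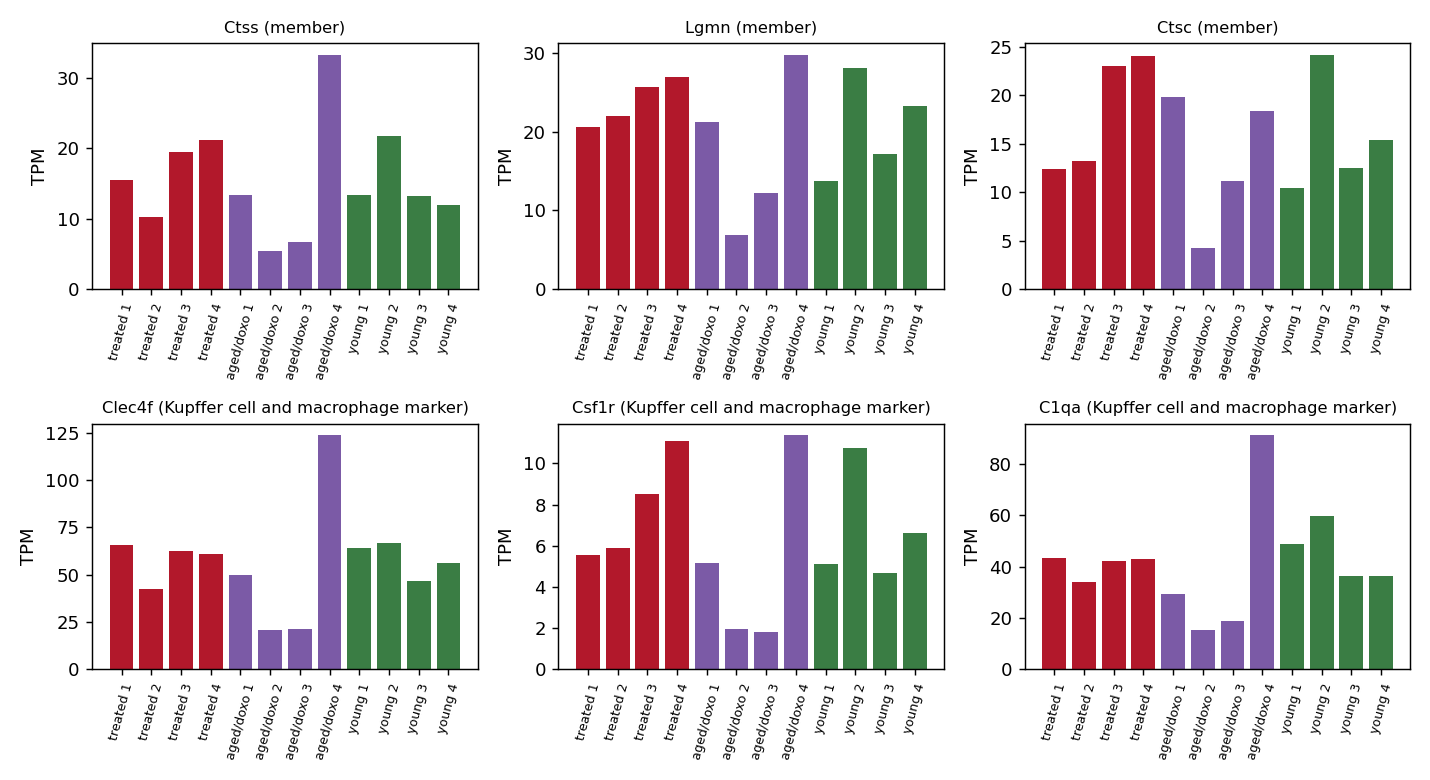
TPM per library of the lysosomal genes Ctss, Lgmn and Ctsc (upper row) and of the macrophage markers Clec4f, Csf1r and C1qa (lower row), with bars from 0. Ctss, Lgmn and all 3 markers are highest of the 12 libraries in aged/doxo library 4, and the 3 markers are low in aged/doxo libraries 2 and 3. Ctsc differs: it is highest in young control library 2 (24.16 TPM), and aged/doxo library 1 (19.84 TPM) lies above aged/doxo library 4 (18.43 TPM).

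Taken comparison by comparison, between treated and aged/doxo livers 0 of the 38 genes passed an adjusted p of 0.05 in limma, and 0.00919% of all tested genes did. At an unadjusted p under 0.05, 1 of the 38 was higher in treated livers (Hexa), against 3.82% of all tested genes, and none was lower, against 0.946%. The differences were positive for 36 of the 38 genes, all but Cd63 and Tfeb, and for 81% of all tested genes. Their median was 0.49, against 0.30 for all tested genes. Without aged/doxo library 2 the lysosomal median was 0.19, and without both libraries that stood apart it was 0.19 against 0.13 for all genes, with 36 of the 38 positive (all but Cd63 and Galns) against 72.5%. Under median-of-ratios scaling, which moved the median of all genes to 0.00, the lysosomal median was 0.18. There 32 of the 38 were positive, against 49.4% of all genes. With a covariate for how strongly expression depends on gene length in a library the lysosomal median was 0.02, the same as for all genes. Then 23 of the 38 were positive, against 56.2%. Treated and aged/doxo libraries overlapped for all 38 genes, whereas 2.77% of all genes were higher and 0.358% lower in treated livers without overlap. Markers of sinusoidal endothelium moved in the same direction. All 8 had positive treated minus aged/doxo differences, with a median of 0.63 (0.62 without both libraries that stood apart), and 4 of the 8 had a limma p under 0.05 before adjustment and none after. Against young control livers all 8 were positive as well, with a median of 0.62 (0.45 without both). Kupffer cell and macrophage markers were positive in treated minus aged/doxo for 12 of 13, with a median of 0.54 (0.29 without both). Hepatocyte markers were positive for 8 of 10, with a median of 0.34 (0.06 without both). Stellate cell and fibroblast markers were positive for 4 of 8 (median -0.02, or -0.13 without both). Erythroid markers were positive for 1 of 5 (median -0.73 with and without both). A limma p under 0.05 before adjustment, in either direction, was also found outside the endothelium. It was found for 4 of the 5 erythroid and 3 of the 8 stellate cell and fibroblast markers. The count was 1 of 13 for Kupffer cell and macrophage markers and 0 of 10 for hepatocyte markers. None passed adjustment. The part of these cell types in the lysosomal values was not tested.

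**Figure D5:**
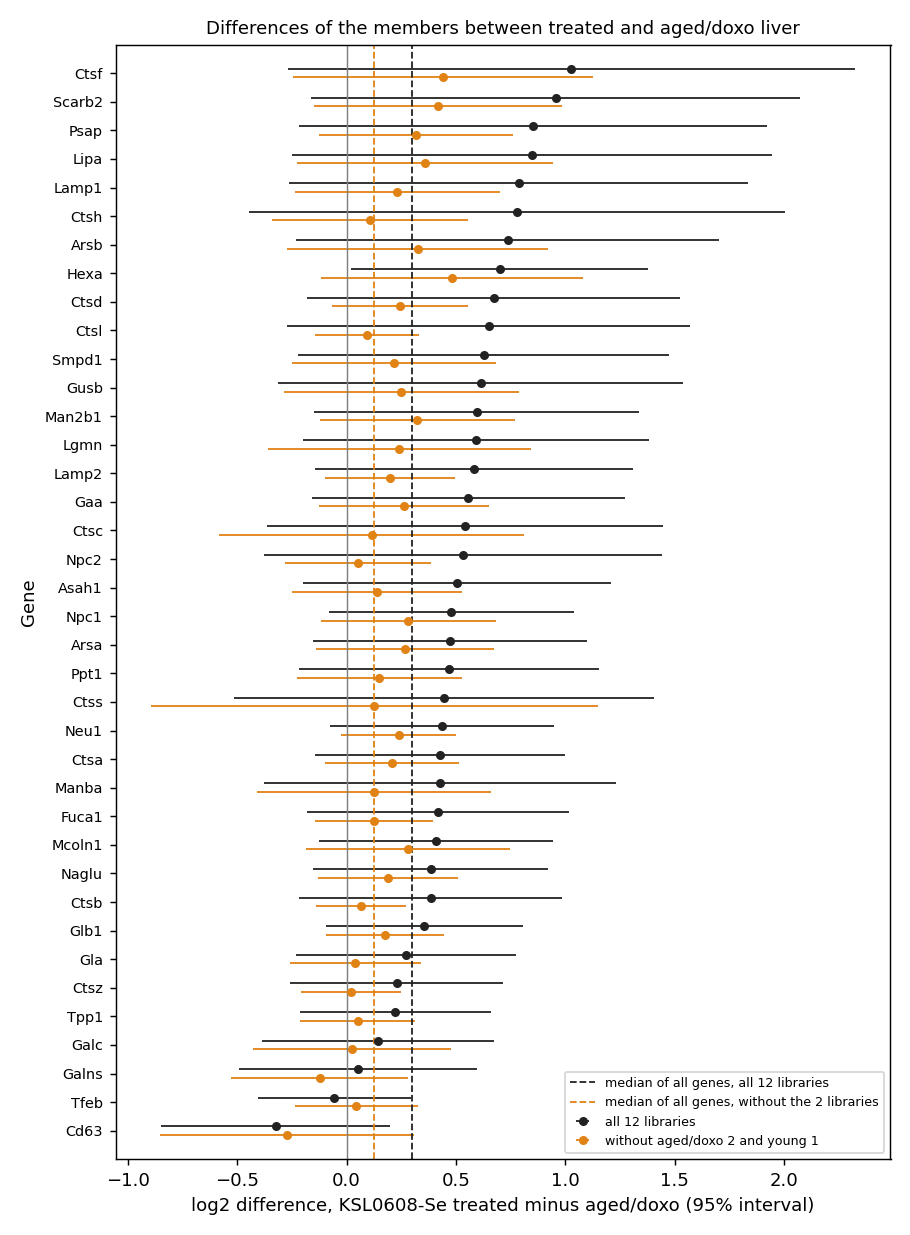
Log2 differences of the 38 genes between treated and aged/doxo livers with 95% intervals from limma, in all 12 libraries (black) and without aged/doxo library 2 and young control library 1 (orange), with dashed lines at the median of all tested genes (0.30 and 0.13). Hexa is the one gene whose interval in all libraries lies above 0, and each orange interval includes 0.

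Between aged/doxo and young control livers, 0 of the 38 genes passed in limma, and 0.00919% of all tested genes did. Cd63 was the 1 gene of the 38 that was higher at an unadjusted p under 0.05, against 1.19% of all genes, and none was lower, against 0.781%. Libraries of both groups overlapped for all 38 genes, whereas 0.689% of all genes were higher and 0.312% lower in aged/doxo livers without overlap. The difference was positive for 4 of the 38 genes (Cd63, Galc, Npc1 and Tpp1) and for 35.2% of all genes, and the median was -0.19 against -0.08 for all genes. This median turned to 0.15 without aged/doxo library 2, was -0.41 without young control library 1 and was -0.36 without aged/doxo library 1. It was -0.06 and -0.09 without young control libraries 2 and 4, and -0.09 without both libraries that stood apart, where 9 of the 38 genes were positive against 41.1% of all genes. Its sign and size thus depended on which of these libraries were included. Kupffer cell and macrophage markers were positive for 1 of 13 in this comparison, with a median of -0.50 (-0.19 without both). Hepatocyte markers were positive for 2 of 10 (median -0.15) and sinusoidal endothelial markers for 3 of 8 (median -0.04). Other lists went the other way. Stellate cell and fibroblast markers were positive for 8 of 8, with a median of 0.37 (0.42 without both). Erythroid markers were positive for 5 of 5, with a median of 0.82 with and without both. Before adjustment, 2 of these 8 and 4 of these 5 had a limma p under 0.05, and none passed adjustment. The part of these cell types in the lysosomal differences was not tested.

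Between treated and young control livers, 0 of the 38 genes passed in limma, against 0.0276% of all tested genes, and 0 had an unadjusted p under 0.05, against 2.74% of all genes higher and 0.662% lower. The difference was positive for 36 of the 38 genes, all but Galns and Tfeb, and for 84% of all genes, with a median of 0.30 against 0.23. Without young control library 1 the median was 0.11, against 0.09 for all genes, and 34 of the 38 genes were positive, against 72.7%. The lysosomal median was 0.06 under median-of-ratios scaling, with 28 of the 38 positive, against 49.7% of all genes. With the gene length covariate it was 0.01, against 0.04 for all genes. The 3 comparisons share libraries in pairs and are not independent of one another.

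The rest of the lysosomal pathway was read from 87 other genes in 6 lists, of which 86 were tested, and 0 passed adjustment in limma in any of the 3 comparisons. The lists were other hydrolases (20 genes), subunits of the v-ATPase proton pump that acidifies the organelle (16), transporters and other membrane proteins (14), enzyme sorting (9), control of TFEB and mTORC1 (12 of 13 tested) and autophagy (15). Their median difference was 0.38 between treated and aged/doxo livers, -0.13 between aged/doxo and young control livers and 0.25 between treated and young control livers, each between the value of the 38 genes and that of all genes. Aged/doxo library 2 was the lowest of the 12 for 63 of the 86.

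Autophagy genes held the smallest p of these lists. Wipi1, a phosphoinositide-binding protein of early autophagosomes, had 4, 5.93, 5.06 and 4.92 TPM in treated livers, 4.05, 1.86, 3.10 and 3.52 TPM in aged/doxo livers, and 3.38, 5.47, 4.72 and 4.54 TPM in young control livers. Its treated minus aged/doxo difference was 0.55 (SE 0.21, limma adjusted p = 0.427), or 0.39 without aged/doxo library 2, and 1 aged/doxo library lay above 1 treated library. In the same comparison the autophagy kinase Ulk1 had 0.55 and Atg5, part of the machinery that attaches LC3 to membranes, 0.60, and without aged/doxo library 2 they had 0.60 and 0.24.

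Among sorting genes, the receptors for mannose 6-phosphate Igf2r and M6pr had treated minus aged/doxo differences of 0.61 (SE 0.30) and 0.48 (SE 0.30). Of the proton pump, Atp6v1a had 0.64 (SE 0.32) and Atp6v1b2 had 0.59 (SE 0.33). Of the mTORC1 genes, Rptor had 0.65 (SE 0.33) and the GTPase gene Rraga 0.93 (SE 0.51), and the limma adjusted p of each of these 6 genes was 0.427. Without aged/doxo library 2 the 6 differences lay between 0.18 for M6pr and 0.42 for Rptor. Ctsk, a collagen-degrading cathepsin, went the other way. It had 1.22, 1.37, 1.72 and 1.07 TPM in treated livers, 2.35, 6.01, 1.81 and 1.21 TPM in aged/doxo livers, and 1.13, 1.51, 0.500 and 1.45 TPM in young control livers. Its aged/doxo minus young control difference of 0.72 (SE 0.31, limma adjusted p = 1) had its highest value in aged/doxo library 2 and was 0.39 without it.

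Some lysosomal genes overlap other expressed genes, which touches their values. Exons on opposite strands are shared by Ctsb and Fdft1 over 774 bases, by Ctsa and Pltp over 495 bases, by Lamp1 and Grtp1 over 249 bases and by Ppt1 and Cap1 over 129 bases. The mean levels of these neighbours were 48.4 TPM for Fdft1, 30.3 TPM for Pltp, 13.9 TPM for Grtp1 and 23.2 TPM for Cap1. Reads of each pair cannot be told apart there without strand information. Ctsa also shares 324 bases with Neurl2 on the opposite strand, which had a mean of 1.555 TPM. On its own strand Glb1 shares 165 bases of exon with Tmppe, which had a mean of 0.315 TPM. Ctsd shares 808 bases on its own strand with Gm49369, which had a mean of 1.89 TPM. Strand information could not separate reads of these same-strand pairs there.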

How the data were processed

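The deposited values are TPM, made by the authors for 55903 genes and rounded to 2 decimals, with each library summing to about 1000000. The submitters' processing notes name fastp, HISAT and RSEM, with no versions. The genome build, the annotation release and the strand setting are not stated in the labels or headers. Sequencing depth cannot be read from TPM, so the counting error of the values, which weighs most on low genes, could not be estimated. Because TPM is a share of a fixed total, a shift in abundant transcripts moves all others.

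All 12 libraries, mapped to groups by their labels, were fitted together with limma 3.58.1 in R 4.3.3 on log2(TPM + 1), that is, with a pseudocount of 1. The fit used group as its only term, a trend in the variance and 10883 genes, those whose mean TPM reached 1. Two-sided p-values were adjusted by Benjamini-Hochberg over all tested genes, with a threshold of 0.05, and intervals are 95% intervals. Glb1 was also tested by an exact permutation test that took every way to divide 8 libraries into groups of 4.

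Values per library are given for Glb1, Tfeb, the 4 members of smallest p in each comparison and members whose groups did not overlap. Those of Lipa, Ctss, Ctsz and Clec4f were added after their values were seen. Up to 4 genes of smallest p per list and comparison could be named from the other pathway lists. The member set, the lists and the tests were chosen with earlier results of these data known. Gene positions are from GENCODE M21, in which 55141 of 55487 Ensembl identifiers were found, and promoter windows are from RefSeq on GRCm38.p6. Alternatives covered the pseudocount, the filter, 3 other scalings, a replicate block, a gene length covariate, fits of the compared groups alone and leaving out libraries. Figures were drawn with matplotlib 3.10.9.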

Additional observations from a re-analysis of the deposited data

Results flagged for a closer look

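Each of the 38 genes was checked in each of the 3 groups. For 7 of the 38 genes, 1 library of a group lay far from the other 3, by a gap that chance gives in about 1 in 20 groups of 4. In 6 of them it was aged/doxo library 2 that lay low. There Ctsb had 107.5 TPM (248 to 268 TPM in the other 3 aged/doxo libraries), Ctsl 56.14 TPM (249.5 to 296 TPM), Asah1 3.22 TPM (10.15 to 10.99 TPM), Npc2 4.39 TPM (17.5 to 21.4 TPM), Ppt1 3.11 TPM (8.31 to 9.98 TPM) and Galns 1.2 TPM (2.48 to 2.73 TPM). By group, such a library was found for 6 of the 38 genes in aged/doxo, 1 of 38 in treated and 0 of 38 in young control livers. Over all tested genes, 9.92% had such a library in the aged/doxo group, 6.72% in the treated group and 7.25% in the young control group. Aged/doxo library 2 also held the highest mitochondrial share, 27.6% of its TPM, and the part of that in these values was not tested. The seventh gene was Ctsd, with 147.68 TPM in treated library 1 against 172 to 177 TPM in the other 3 treated libraries.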

How the results depend on the processing

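None of the 38 genes passed an adjusted p of 0.05 in limma under any of the 22 alternatives, and the smallest adjusted p over all of them was 0.216 between treated and aged/doxo livers, 0.663 between aged/doxo and young control livers and 0.507 between treated and young control livers. Signs were less stable: 16, 33 and 19 of the 38 genes changed sign under at least 1 alternative in these 3 comparisons. The Glb1 difference between treated and young control livers turned to -0.0712 under median-of-ratios scaling and -0.0709 under quantile scaling, while aged/doxo minus young control reached -0.11 with an exact permutation p of 0.0286 (adjusted 0.0857) under the first. The median over the 38 genes ranged with single libraries left out between 0.19 and 0.63, between -0.41 and 0.15, and between 0.11 and 0.42 in the 3 comparisons.

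Over all tested genes, few calls were made. Between treated and aged/doxo livers the 1 call became 0 with no filter, either scaling named above, a total that leaves out mitochondrial genes and the 50 most abundant ones, the length covariate, or without both libraries that stood apart. It became 2 with the compared groups alone, and 0 to 1 with single libraries left out. Between aged/doxo and young control livers the 1 call became 2 with a pseudocount of 0.1, quantile scaling or the length covariate, 3 with median-of-ratios scaling or the reduced total, 0 with the compared groups alone or no filter, and 0 to 2 with single libraries left out. Between treated and young control livers the 3 calls became 1 with the compared groups alone or no filter, 5 with the reduced total, and 1 to 5 with single libraries left out. The causes were not tested.

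With the replicate block the calls were 0, 0 and 1 in these 3 comparisons. Libraries share only a number across groups, with correlations of same-numbered deviations between -0.580 and 0.393. Depth is unknown, and the 4 libraries per group limit the precision.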

Other observations

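Markers of other liver cell types also varied between libraries. Summed TPM of 8 sinusoidal endothelial markers was 51.9 to 103 in treated livers, 31.7 to 72.0 in aged/doxo livers and 29.1 to 77.2 in young control livers. Of the 4 aged/doxo libraries, library 4 was highest for the endothelial sum, for 8 stellate cell and fibroblast markers (115 TPM, against 46.5 to 66.6 TPM in the other 3), for 5 cholangiocyte markers (52.8 TPM, against 31.5 to 36.2 TPM) and for 6 lymphocyte markers (6.99 TPM, against 3.27 to 3.49 TPM). Only 3 of the 5 cholangiocyte and 1 of the 6 lymphocyte markers reached the mean of 1 TPM set for testing. Spp1 held 44.85 TPM of the cholangiocyte sum in library 4, and Dcn held 77.93 TPM of the stellate cell and fibroblast sum. The hepatocyte sum was also highest in library 4, at 87813.5 TPM, against 51526 to 78697.3 TPM in the rest of the group. It was the highest of the 12 libraries, although Alb was higher in aged/doxo library 1 (40940.6 against 37189.1 TPM). The neutrophil sum was highest of the group there too, at 4.97 TPM, while the erythroid sum, at 2121.96 TPM, was not. Sox9 (1.35 TPM) and the lymphocyte marker Cd79a (0.79 TPM) were lowest of the group in that library. Summed erythroid markers were 846 to 1777 TPM in treated livers, 1839 to 2568 TPM in aged/doxo livers and 836 to 1991 TPM in young control livers, with all 4 aged/doxo libraries above all 4 treated libraries. Singly, Hba-a1, Hba-a2 and Hbb-bs did not overlap between these 2 groups, against 0.358% of all tested genes lower in treated livers without overlap. Hbb-bt overlapped, with 97.86 TPM in treated library 4 and 89.4 TPM in aged/doxo library 1. Alas2 overlapped too, with 86.27 to 105.35 TPM in treated and 77.11 to 99.57 TPM in aged/doxo livers. The 5 neutrophil markers summed to 2.12 to 5.52 TPM over all 12 libraries.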
